A study of Mus musculus with 60 samples.

Results

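The subject is 10 mouse genes that encode histone variants and linker histones: the H2A variants H2ax, H2az1, H2az2, Macroh2a1 and Macroh2a2, the H3 variants H3f3a, H3f3b and Cenpa, and the linker histones H1f0 and H1f2. They were listed by name, with earlier results of these data known, and each was found in both tables, as 10 of the 56980 genes counted. The study sequenced polyadenylated RNA from 60 libraries of fibroblasts, asking how partial reprogramming and inhibitors of TGF-β signalling act on cells that lack normal Ercc1. ERCC1 is a subunit of the nuclease that cuts out bulky DNA damage in nucleotide excision repair. All 20 groups held 3 libraries.

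In the reprogramming table of 36 libraries, D/KO cells came from 8 week old male 4FJ_ERCC1_(d/-) mice, and WT cells came from 22 week old female 4FJ_(+/-)_OCT4-GFP mice. Both lines carry a doxycycline-inducible cassette of Oct4, Klf4, Sox2 and c-Myc at Col1a1. For the D/KO line the study also gives the rtTA activator at Rosa26 and a single truncated Ercc1 allele. Cells were collected at day 0, and at days 2 and 4 of doxycycline at 2 µg/ml, each with and without VC, which is ascorbic acid at 50 µg/ml with the GSK3 inhibitor CHIR99021 at 3 µM. In the inhibitor table of 24 libraries, D/KO cells came from 4 week old female ERCC1_(d/-) mice and carried no cassette in the label. They were left as controls or treated for 3 days with Repsox or Vactosertib at 0.1 µM, or with DMH-1 or A83-01 at 1 µM. Repsox and A83-01 block the TGF-β type I receptor ALK5, DMH-1 blocks the BMP type I receptor ALK2, and Vactosertib is described as blocking both. WT control and WT skin control cells were tail tip and skin fibroblasts of 14 week old female ERCC1_(+/+) mice, and the remaining group, WT 4F TGFB, came from 22 week old female 4FJ_(+/-)_OCT4-GFP mice. D/KO and WT cells thus differed in age, and in the reprogramming table also in sex and in the reporter line, so that these cannot be told apart from the Ercc1 genotype. The labels do not say that libraries of a group came from separate cultures, and p-values measure the spread between these libraries.

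Most histones are made only while DNA is copied, from clustered genes whose mRNAs end in a stem-loop instead of a poly(A) tail. Most histone variants are made from genes outside that programme, H2ax being known to give mRNAs of both forms, and they are placed into chromatin by dedicated chaperones. H2AX is phosphorylated around DNA breaks by the kinases ATM, ATR and DNA-PK, and the marked chromatin recruits repair factors. H2A.Z, from H2az1 and H2az2, is exchanged at promoters by the SRCAP and EP400 complexes. MacroH2A, from Macroh2a1 and Macroh2a2, carries a large extra domain and is known as a barrier to the reprogramming of fibroblasts. H3f3a and H3f3b encode the same H3.3 protein, placed by the HIRA complex or by DAXX and ATRX, and CENP-A, from Cenpa, marks centromeres and is loaded by its chaperone HJURP. H1f0 encodes the linker histone that builds up in resting cells, while H1f2 encodes a replication-dependent one. The libraries report mRNA, not the amount of a protein, its phosphorylation or its place in chromatin.

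A search of transcript sequences for the histone stem-loop, with the bases on either side of it and on the sense strand, found the element in 2 of the 10 genes. It stood in 72 of 21642 protein-coding genes (0.333%) and in 42 of 62 replication-dependent core histone genes. The sites are shown because both transcripts run on past the stem-loop to a poly(A) signal, and the libraries were made from polyadenylated RNA. Capitals mark the stem-loop, 5′ to 3′ on the plus strand of GRCm39. The H2ax site lies at chr9:44246530-44246559, in a single exon, with 822 bases of transcript after it, and the H1f2 site at chr13:23923488-23923517, with 840 bases after it.
H2ax stem-loop: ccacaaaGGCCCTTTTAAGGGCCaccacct
H1f2 stem-loop: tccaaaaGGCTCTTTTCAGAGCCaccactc
Counts of H2ax and H1f2 therefore describe polyadenylated transcripts, and transcripts that ended at the stem-loop were not measured.

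Promoters from RefSeq (GRCm38.p6, 250 bases before to 50 after the start) matched 9 of the 10 genes. Those of H2az1 and Cenpa are shown because these 2 genes followed the proliferation genes most closely, as given below. Capitals mark CCAAT, the CCAAT box, and TTTGAA, part of an element found in cell cycle genes, each on either strand (ATTGG and TTCAAA).
H2az1 promoter, chr3:137864237-137864536, plus strand: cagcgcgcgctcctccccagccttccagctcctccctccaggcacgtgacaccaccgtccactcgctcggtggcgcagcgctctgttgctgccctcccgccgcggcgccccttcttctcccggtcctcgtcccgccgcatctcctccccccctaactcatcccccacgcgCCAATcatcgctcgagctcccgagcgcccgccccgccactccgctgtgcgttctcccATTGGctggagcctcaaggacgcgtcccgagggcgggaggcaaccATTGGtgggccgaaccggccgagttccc
Cenpa promoter, chr5:30666636-30666935, plus strand: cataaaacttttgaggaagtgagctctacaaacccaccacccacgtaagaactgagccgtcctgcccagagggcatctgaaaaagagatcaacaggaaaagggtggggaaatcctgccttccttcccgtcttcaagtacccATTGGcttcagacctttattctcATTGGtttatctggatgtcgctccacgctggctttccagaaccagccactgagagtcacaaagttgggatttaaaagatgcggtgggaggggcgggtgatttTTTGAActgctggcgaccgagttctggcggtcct
The H2az1 window held 3 CCAAT boxes and no TTTGAA, and the Cenpa window held 2 CCAAT boxes and 1 TTTGAA. Genes that did not follow proliferation held the same letters, with 4 CCAAT boxes and 1 TTTGAA for H2az2 and 4 CCAAT boxes for H3f3b. Macroh2a2, H3f3a and H1f2 held 1 CCAAT box each, and Macroh2a1 and H1f0 held neither motif. Of 32851 mouse promoter windows of this length, 37.41% held a CCAAT box and 17.89% held TTTGAA, so either match is common and is a description of the letters, not of a bound factor.

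Library totals ran from 16538374 to 18484951 counts for reprogramming and from 17102639 to 30599138 for the inhibitors. Ercc1 lay between 8.03 and 18.6 CPM (counts scaled to library size with TMM factors) in the 18 D/KO reprogramming libraries and between 16.8 and 29.1 CPM in the 18 WT libraries. In the inhibitor table Ercc1 did not separate the genotypes, at 20.6 ± 0.276 CPM (SD, n = 3) in D/KO control and 18 ± 4.29 CPM in WT control, and whether the counted reads fall in the truncated part was not examined. Pou5f1, the Oct4 gene of the cassette, was at 0.835 ± 0.325 CPM in D/KO and 1.96 ± 0.618 CPM in WT cells at day 0 and at 64 ± 18.7 and 60.5 ± 4.95 CPM at day 4. Sums over marker and proliferation lists are given in CPM of the library total, without TMM factors. The 9 fibroblast markers summed to 74519 to 110900 CPM at day 0 and 40204 to 40723 CPM at day 4 in D/KO cells, and to 55950 to 57807 and 50605 to 51805 CPM in WT cells. In VC they summed to 162710 to 195560 CPM at day 0 and 35843 to 36296 CPM at day 4 in D/KO cells, and to 139670 to 146810 and 65879 to 74534 CPM in WT cells. Day 4 lay below day 0 in all 4 arms and VC alone lay above day 0 in both cell types, without overlap. Of 4 endothelial markers, Pecam1, Cdh5 and Kdr were at 65.7 to 288 CPM, 31.1 to 301 CPM and 4.67 to 56.5 CPM in the D/KO reprogramming libraries, and at 0 to 0.565, 0 to 0.668 and 0 to 0.308 CPM in the WT libraries. The fourth, Tek, overlapped between them, at 7.76 to 125 CPM in D/KO and 4.36 to 115 CPM in WT libraries. At day 0 the skeletal muscle markers summed to 19.4 to 32 CPM in D/KO and 1.95 to 3.25 CPM in WT libraries, the macrophage markers to 4.08 to 7.57 and 16.7 to 37.8 CPM and the keratinocyte markers to 0.110 to 0.335 and 0.592 to 1.04 CPM, each without overlap. With VC alone the endothelial sum fell from 477 to 570 CPM to 150 to 192 CPM in D/KO libraries. In WT libraries it fell from 15.5 to 18.5 CPM to 4.19 to 6.20 CPM. VC alone also lowered the skeletal muscle sum in D/KO (3.72 to 8.12 CPM), raised it in WT (7.22 to 9.90 CPM) and raised the keratinocyte sum in D/KO libraries (0.760 to 1.78 CPM), without overlap. By day 4 without VC the endothelial sum fell to 323 to 338 CPM in D/KO and rose to 102 to 105 CPM in WT libraries. The keratinocyte sum rose in both (44.3 to 61.6 and 2.16 to 2.64 CPM), and the macrophage sum fell in both (2.24 to 3.53 and 14.8 to 16.3 CPM). The skeletal muscle sum fell in D/KO (11.7 to 15.3 CPM) and rose in WT libraries (4.47 to 7.30 CPM), all without overlap with day 0. The part of any of these cell types in the changes and differences given here was not tested, and in bulk RNA fewer cells of a type and less RNA per cell cannot be told apart. WT skin control replicate 1 and D/KO Repsox replicate 2 stood apart from their groups, with the highest level of their group for most of the 10 genes.

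All 10 genes passed the filter on low counts in both tables. Per length (TPM, a share of all transcripts), the median over the 12 reprogramming groups was highest for H1f2 at 517, followed by H3f3b at 352, H3f3a at 295 and H1f0 at 277. H2az1 stood at 109.8, H2ax at 71.3, H2az2 at 52.1, Macroh2a1 at 37.3 and Macroh2a2 at 21.4 TPM, and Cenpa was lowest at 4.50 TPM. The order of variation was different. The highest group mean in CPM exceeded the lowest by 10.2-fold for Cenpa, 6.25-fold for H2az1, 3.73-fold for H2ax, 3.53-fold for H2az2 and 3.36-fold for Macroh2a2. For H3f3a, H1f0, Macroh2a1, H3f3b and H1f2 the same ratio was between 1.37 and 1.78.

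**Figure D1:**
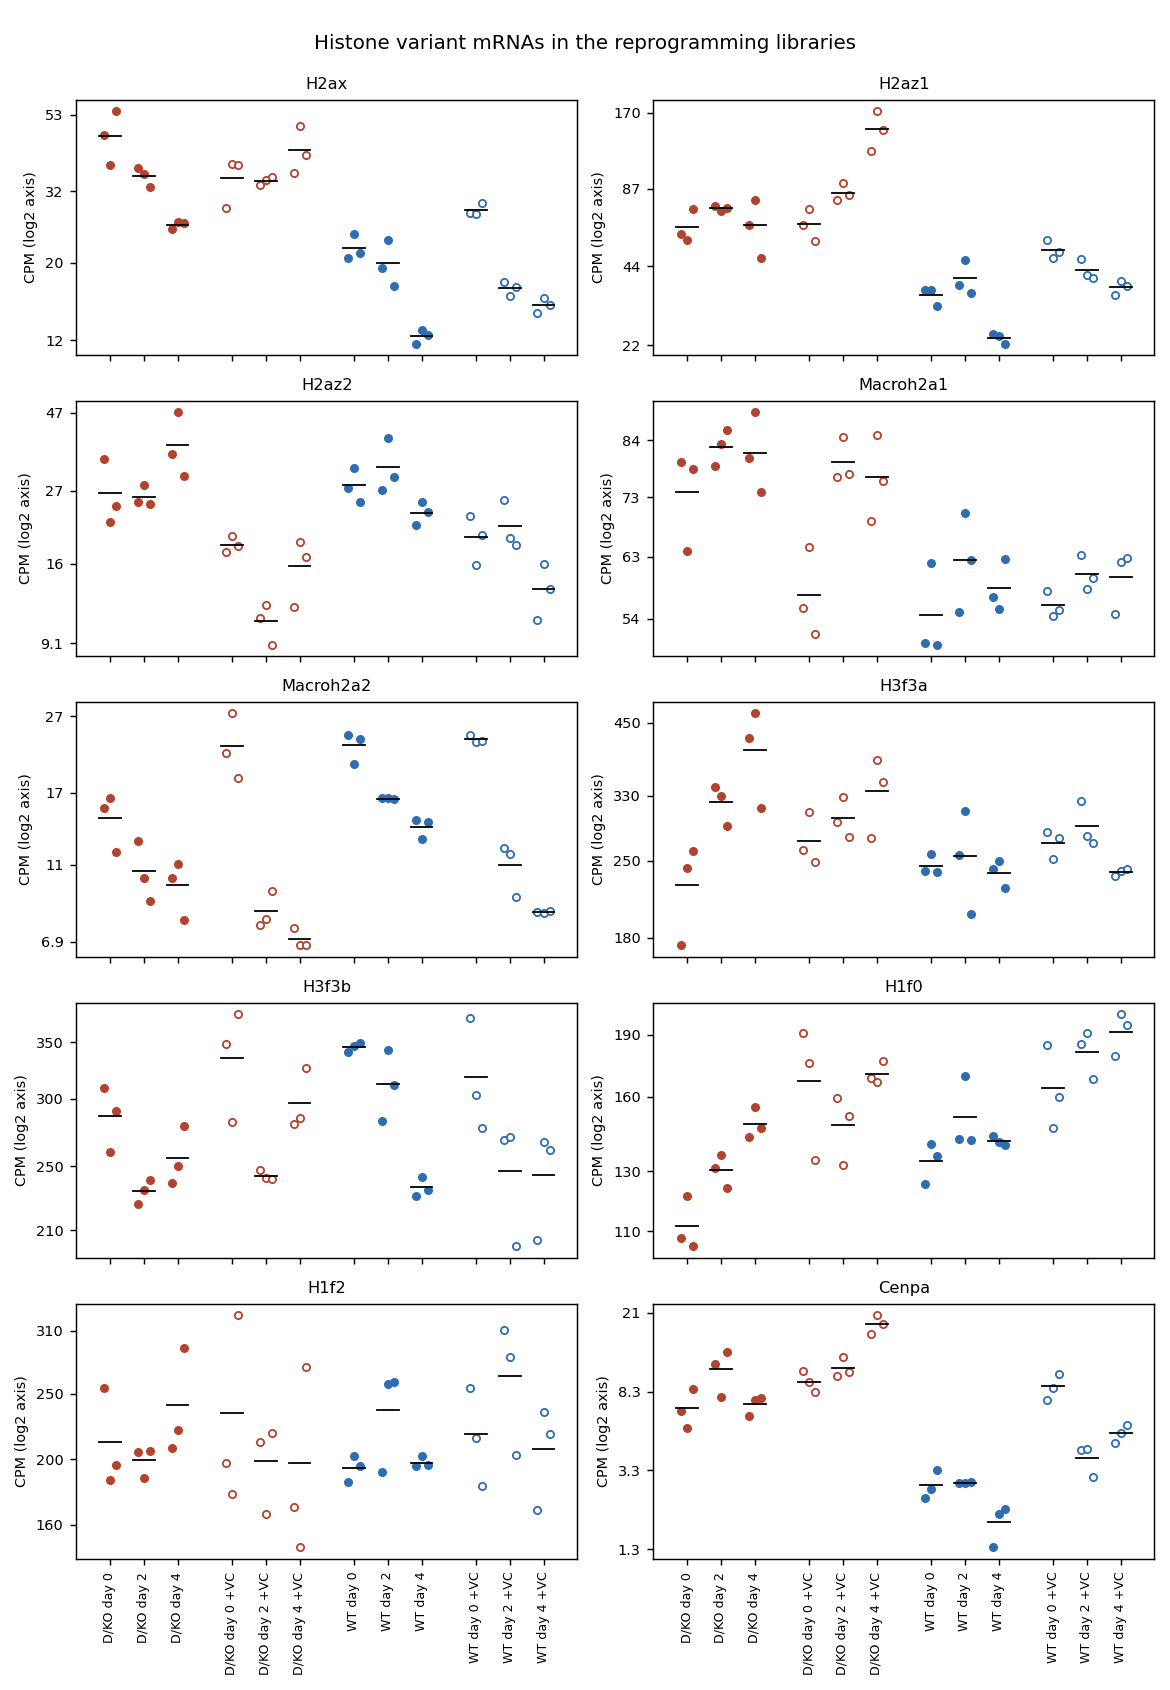
Each panel plots 1 gene in CPM on a log2 axis in the 12 reprogramming groups; points are libraries, bars are group means, red is D/KO, blue is WT and open points are VC groups. H2ax, H2az1 and Cenpa are higher in the D/KO than in the WT libraries at day 0, Macroh2a2 falls with time in each arm, and no H1f2 comparison was called with all libraries and the standard filter.

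Changes were tested with edgeR's quasi-likelihood test, and a gene was called at an adjusted p (Benjamini-Hochberg over all genes tested) under 0.05. Against day 0 without VC, D/KO cells had 2 of the 10 genes higher and 2 lower at day 2, where 27.4% of all genes were called, and 3 higher and 2 lower at day 4, where 37.0% were. WT cells had 1 lower at day 2 (Macroh2a2; background 10.6%) and 5 lower at day 4 (24.5%). In VC, D/KO cells had 2 higher and 3 lower at day 2 (47.4%) and 3 higher and 1 lower at day 4 (54.1%). WT cells in VC had 4 lower at day 2 (27.5%) and 6 lower at day 4 (44.7%). None of the 10 was called higher in any of the 4 WT time comparisons, each against day 0 of the same medium. Against day 0 without VC, WT cells in VC had Cenpa higher at day 4 (0.87, adjusted p = 0.00115). H1f0 was then higher at day 2 (0.44, adjusted p = 0.000906) and day 4 (0.52, adjusted p = 0.00011). The share called was below the background at WT day 2 and at D/KO day 4 in VC and above it at the other 6 points. With 10 genes these shares are coarse, and at WT day 2 and D/KO day 2 in VC they lay close to the background. None was tested against it.

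**Figure D2:**
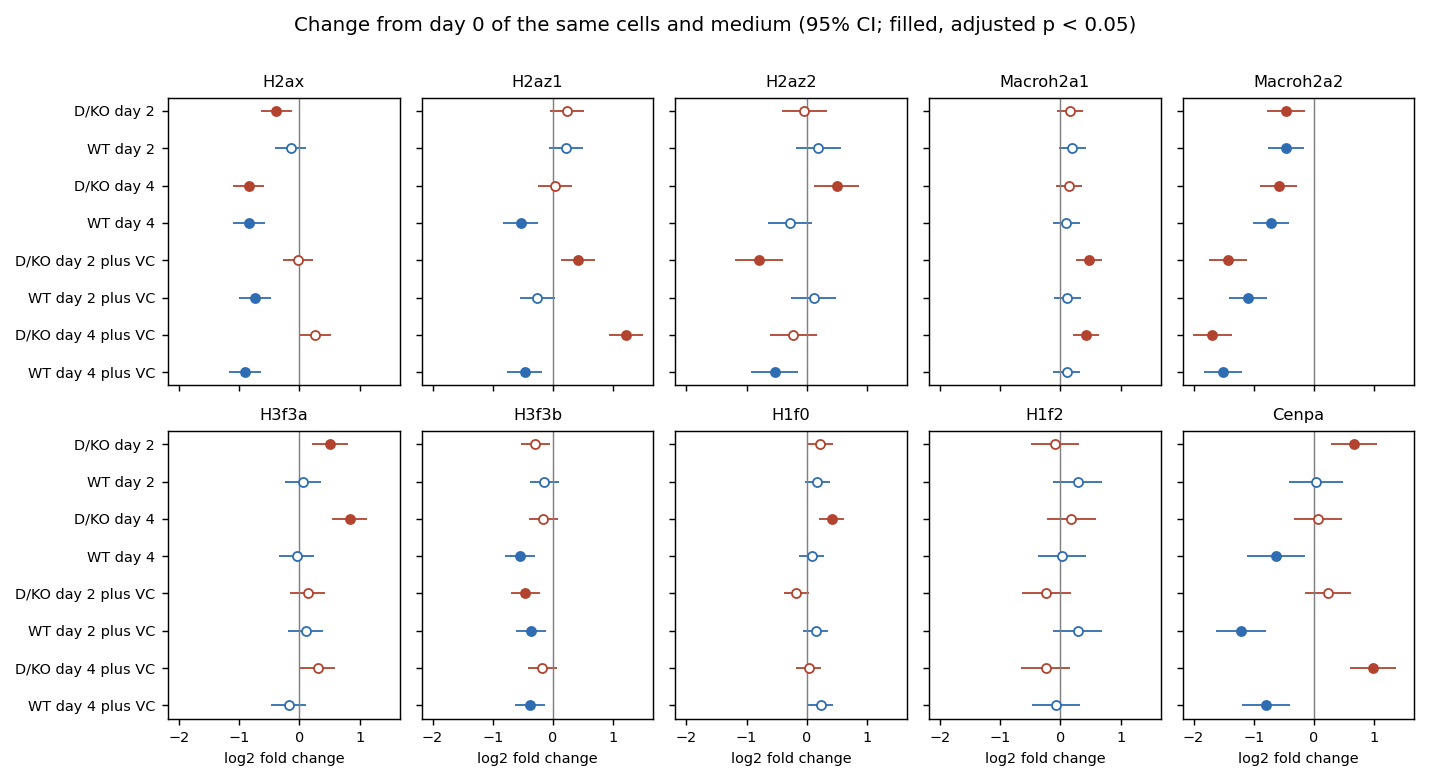
Log2 fold change from day 0 of the same cells and medium, with its 95% confidence interval, for each gene in the 8 time comparisons; filled points passed an adjusted p of 0.05, red is D/KO and blue is WT. Macroh2a2 lies below 0 in all 8, and H2az1 and Cenpa point in opposite directions in D/KO and WT cells at day 4 in VC.

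H2ax fell by day 4 of reprogramming without VC in both cell types and was higher in D/KO than in WT cells at day 0. At day 0 the D/KO libraries held 46.4, 38 and 54.2 CPM and the WT libraries 20.6, 24.3 and 21.3 CPM. Every D/KO library was above every WT library (log2 fold change 1.06 ± 0.13 (SE), adjusted p = 1.54e-08). At day 2 D/KO cells held 37.4, 36 and 33 CPM and at day 4 25, 26.2 and 26 CPM. All 3 day 2 and all 3 day 4 libraries lay below the day 0 libraries, with a log2 fold change of -0.38 ± 0.12, adjusted p = 0.0185 at day 2 and -0.84 ± 0.13, adjusted p = 9.09e-07 at day 4. WT cells held 19.3, 23.3 and 17.2 CPM at day 2, overlapping day 0 (-0.15 ± 0.13, adjusted p = 0.538), and 11.8, 12.9 and 12.5 CPM at day 4, below every day 0 library (-0.84 ± 0.13, adjusted p = 6.74e-06). The fall at day 4 did not differ detectably between the cell types (difference -0.01 ± 0.19, adjusted p = 0.996, 95% interval -0.38 to 0.37). The D/KO day 2 call was lost without D/KO day 0 replicate 3 or D/KO day 2 replicate 3 (adjusted p = 0.175 and 0.0907).

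With VC, H2ax fell in WT cells and was not called over time in D/KO cells against day 0 in VC. D/KO cells held 28.7, 38.3 and 38.2 CPM at day 0, 33.4, 34.5 and 35.2 CPM at day 2 and 36.1, 49.4 and 40.7 CPM at day 4. These ranges overlapped, and neither time point was called (-0.03 ± 0.13, adjusted p = 0.886 at day 2 and 0.27 ± 0.12, adjusted p = 0.07 at day 4). The day 4 change was called higher without D/KO day 0 plus VC replicate 2 (0.33, adjusted p = 0.0453), without D/KO day 0 plus VC replicate 3 (0.33, adjusted p = 0.0477) and without D/KO day 4 plus VC replicate 1 (0.37, adjusted p = 0.0213). WT cells held 27.8, 27.6 and 29.6 CPM at day 0, 17.6, 16.1 and 17.1 CPM at day 2 and 14.3, 15.9 and 15.2 CPM at day 4. Both later WT groups were entirely below day 0 (-0.74 ± 0.13, adjusted p = 2.55e-05 and -0.90 ± 0.13, adjusted p = 5.3e-07). The change in D/KO exceeded that in WT by 0.72 ± 0.18, adjusted p = 0.0054 at day 2 and by 1.17 ± 0.18, adjusted p = 5.16e-06 at day 4. Both of these calls depend on the day 0 VC libraries, and VC alone moved H2ax in opposite directions, lower in D/KO (-0.40 ± 0.12, adjusted p = 0.015) and higher in WT (0.36 ± 0.13, adjusted p = 0.0306). Taken against day 0 without VC, H2ax was lower in D/KO cells at day 2 in VC (-0.43, adjusted p = 0.00475), and neither difference was called (adjusted p = 0.906 at day 2 and 0.102 at day 4). The D/KO call for VC alone was lost without D/KO day 0 replicate 3 or D/KO day 0 plus VC replicate 1 (adjusted p = 0.155 and 0.156) and in a fit of only the libraries compared (0.128), and the WT call was lost without WT day 0 replicate 1 or 3 or WT day 0 plus VC replicate 1 or 3 (adjusted p from 0.0569 to 0.127) and with no filter on low counts (0.0827).

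Of the H2ax exon bases, 10.19% also belong to Gm55497 on the other strand. A list of 14 kinases, readers and phosphatases that act on H2AX was read beside the share of all genes called. In D/KO cells in VC 6 rose and 1 fell at day 2 (median log2 fold change 0.40, all genes -0.01, 47.4% of all genes called), and 7 rose and 1 fell at day 4 (median 0.60, all genes 0.01, 54.1% called). At day 4 the risers included Prkdc, the catalytic subunit of DNA-PK, at 0.92, Rnf168, a ubiquitin ligase of damaged chromatin, at 0.76, and Trp53bp1, which encodes the reader 53BP1, at 0.72 on the log2 scale. In WT cells 5 rose and 1 fell at day 4 without VC (24.5% of all genes called), and 7 rose and 1 fell at day 4 with VC (44.7%), where H2ax fell. Over the 12 group means, the 5 genes most like H2ax were Cycs (r = 0.981), Timm23 (0.971), Cfl1 (0.967), Rars1 (0.958) and Mrpl20 (0.953), by Pearson's r of log2 CPM across groups that share lines and media.

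H2az1 rose to its highest level in D/KO cells at day 4 in VC, where its paralog H2az2 was not called. D/KO cells in VC held 63, 72.7 and 55.1 CPM of H2az1 at day 0, 78.9, 91.4 and 82.3 CPM at day 2 and 122, 172 and 146 CPM at day 4. The 3 groups did not overlap (0.41 ± 0.14, adjusted p = 0.0157 at day 2 and 1.21 ± 0.14, adjusted p = 3.15e-09 at day 4). WT cells in VC held 55.3, 47.5 and 49.7 CPM at day 0 and 34.3, 38.7 and 37 CPM at day 4, with every day 4 library lower (-0.47 ± 0.14, adjusted p = 0.00674). The change in D/KO exceeded that in WT by 1.68 ± 0.20, adjusted p = 4.76e-08 at day 4 in VC. The WT call was lost against day 0 without VC, where the change was 0.10 (adjusted p = 0.602), and the day 2 call in D/KO was lost without D/KO day 0 plus VC replicate 3 or D/KO day 2 plus VC replicate 2 (adjusted p = 0.101 and 0.0737).

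Without VC, H2az1 in D/KO cells ranged from 47.5 to 79.2 CPM over the 3 time points with no call. In WT cells it went from 35.7, 35.6 and 31 CPM at day 0 to 24.2, 23.9 and 22.3 CPM at day 4. The day 4 libraries were all lower (-0.54 ± 0.14, adjusted p = 0.00528). At day 0 every D/KO library exceeded every WT library (0.87 ± 0.14, adjusted p = 6.01e-06). VC alone raised H2az1 in WT cells (0.57 ± 0.14, adjusted p = 0.00197) and gave 0.03 ± 0.14, adjusted p = 0.908 in D/KO cells.

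H2az2 fell in D/KO cells at day 2 in VC. In D/KO cells it was at 33.9, 21.6 and 24.3 CPM at day 0 and 17.4, 19.5 and 18.2 CPM with VC alone, and then at 10.9, 12 and 9 CPM at day 2 in VC. The day 2 VC libraries were the lowest of the 3 groups (-0.79 ± 0.20, adjusted p = 0.001 against day 0 VC). At day 4 in VC, at 11.7, 18.7 and 16.8 CPM, the gene was not called (-0.22 ± 0.19, adjusted p = 0.334), but was lower against day 0 without VC (-0.75, adjusted p = 0.000899). Without VC it rose in D/KO cells by day 4, to 35.1, 47.2 and 30.0 CPM, with 1 library inside the day 0 range (0.50 ± 0.18, adjusted p = 0.0292), a call lost without D/KO day 0 replicate 2 or 3 or D/KO day 4 replicate 2 (adjusted p from 0.105 to 0.262) and in a fit of only the libraries compared (0.0638). In WT cells day 4 without VC, at 21.2, 24.8 and 23.2 CPM against 27.5, 31.6 and 25 CPM, did not overlap day 0 and was not called (-0.28 ± 0.18, adjusted p = 0.278), except in a fit of only the libraries compared (-0.27, adjusted p = 0.0287). The WT calls were lower values with VC alone (-0.53 ± 0.19, adjusted p = 0.0264) and at day 4 in VC (-0.53 ± 0.19, adjusted p = 0.0217). These calls were lost without WT day 0 replicate 1 or 2 or WT day 0 plus VC replicate 2 or 3 (adjusted p from 0.0518 to 0.139), and without WT day 0 plus VC replicate 1 or 3 or WT day 4 plus VC replicate 1 or 3 (adjusted p from 0.0536 to 0.137), and the D/KO call for VC alone (-0.53 ± 0.19, adjusted p = 0.0328) without D/KO day 0 replicate 1 or D/KO day 0 plus VC replicate 1 or 3 (adjusted p from 0.0753 to 0.265) and in a fit of only the libraries compared (0.0623).

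The ratio of H2az1 to H2az2 in TPM separated days 2 and 4 in VC of D/KO cells from all other reprogramming groups. Its mean was 2.23 (1.59 to 2.76) in D/KO cells at day 0 (lowest and highest library in parentheses), 1.55 (1.45 to 1.66) at day 4, 3.18 (2.78 to 3.43) with VC alone, 7.37 (6.67 to 8.41) at day 2 in VC and 8.67 (8.01 to 9.56) at day 4 in VC. In WT cells it was 1.12 (1.04 to 1.19) at day 0, 0.940 (0.884 to 1.05) at day 4, 2.45 (2.25 to 2.76) with VC alone, 1.88 (1.72 to 1.99) at day 2 in VC and 2.57 (2.23 to 2.93) at day 4 in VC. The WT values at day 4 in VC overlapped those with VC alone. No WT library reached the ratio of any D/KO library at days 2 and 4 in VC. Of 12 genes that exchange H2A.Z, 6 rose and 0 fell in D/KO cells at day 4 in VC (median 0.38), where 54.1% of all genes were called. They included Anp32e, which removes H2A.Z from nucleosomes, at 1.16, Actl6a at 0.62 and Ruvbl1 at 0.52, both subunits of remodelling complexes. In WT cells at the same point 4 rose and 1 fell (44.7% of all genes called), and the difference of change was called higher in D/KO for 3 of the 12 (29.4%). Near copies of H2az1 (150 bases or more at 97% identity or more) lie in 4 other genes, mainly Tmcc1, whose counts together came to 41.7% of those of H2az1. Tmcc1 changed by -0.32 (adjusted p = 0.0306) in D/KO cells at day 4 in VC.

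**Figure D3:**
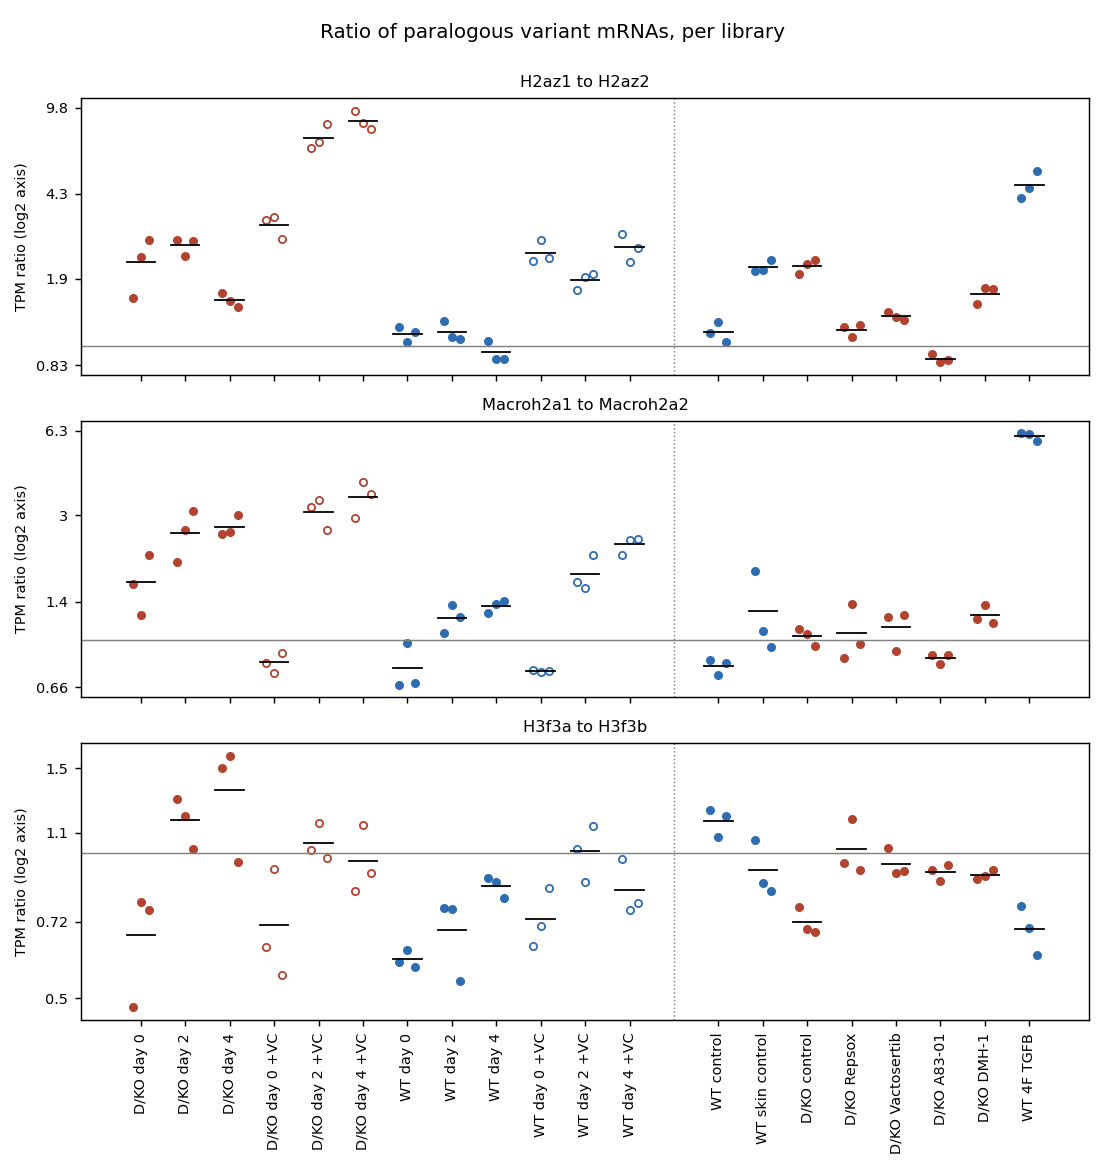
TPM ratio of each pair of paralogs per library on a log2 axis (points, with bars at group means; red D/KO, blue WT, open points VC; the dotted line parts the reprogramming from the inhibitor table and the grey line marks a ratio of 1). H2az1 to H2az2 reaches 7.37 and 8.67 in D/KO cells at days 2 and 4 in VC, and Macroh2a1 to Macroh2a2 rises with time in all 4 arms.

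Macroh2a2 fell at every time point in both cell types, by a log2 fold change of -0.47 to -0.71 without VC and -1.10 to -1.69 with VC. In D/KO cells it was at 15.5, 16.5 and 11.8 CPM at day 0 and at 10.1, 11.1 and 7.87 CPM at day 4, with every day 4 library lower (-0.59 ± 0.15, adjusted p = 0.00222). In WT cells it went from 24.1, 20.3 and 23.6 CPM to 14.4, 12.8 and 14.2 CPM, again without overlap (-0.71 ± 0.15, adjusted p = 0.000396). The day 2 values were -0.47 ± 0.15, adjusted p = 0.0197 in D/KO and -0.47 ± 0.15, adjusted p = 0.035 in WT cells. With VC the D/KO libraries dropped from 21.6, 27.5 and 18.6 CPM to 7.64, 7.93 and 9.40 CPM at day 2 and 7.50, 6.74 and 6.74 CPM at day 4. The day 0 libraries were all above the later ones (-1.44 ± 0.16, adjusted p = 1.11e-09 and -1.69 ± 0.16, adjusted p = 1.94e-11). WT cells in VC showed -1.10 ± 0.15, adjusted p = 4.8e-07 at day 2 and -1.51 ± 0.15, adjusted p = 4.4e-10 at day 4, ending at 8.25, 8.22 and 8.28 CPM. None of the 4 differences of change between D/KO and WT was called (from -0.34 to 0.12).

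At day 0 Macroh2a2 was lower in D/KO than in WT cells (-0.63 ± 0.15, adjusted p = 0.000752), and VC alone raised it in D/KO (0.63 ± 0.15, adjusted p = 0.00163) and gave 0.05 ± 0.15, adjusted p = 0.832 in WT cells. Against day 0 without VC the falls of D/KO cells in VC were smaller, at -0.81 at day 2 and -1.06 at day 4, and both were still called. The D/KO day 2 call was lost without D/KO day 0 replicate 1 or 2 or D/KO day 2 replicate 2 or 3 (adjusted p from 0.0705 to 0.136), with no filter on low counts (0.0523) and in a fit of only the libraries compared (0.0771). The WT day 2 call was lost without WT day 0 replicate 1 or 3 or WT day 2 replicate 1, 2 or 3 (adjusted p from 0.0667 to 0.147) and with no filter on low counts (0.0727). Of the Macroh2a2 exon bases, 10.71% also belong to Aifm2 on the other strand, and the strand setting of the counting is not given in the sources used here. Aifm2 was called higher in 7 of the 8 time comparisons, with 0.84 in D/KO at day 2 and 0.77 in WT at day 4 in VC. During reprogramming the Aifm2 counts came to 156% of those of Macroh2a2, with 93.1% in inhibitor libraries, and reads of the shared bases cannot be told apart.

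Macroh2a1 changed less. It held 55.5, 64.5 and 52 CPM in D/KO cells at day 0 in VC and 76.8, 84.8 and 77.3 CPM at day 2. The day 2 libraries were all higher (0.48 ± 0.11, adjusted p = 0.000405), as were those at day 4 (0.42 ± 0.11, adjusted p = 0.00122). Against day 0 without VC neither call remained (adjusted p = 0.433 and 0.712), and VC alone lowered Macroh2a1 in D/KO cells (-0.37 ± 0.11, adjusted p = 0.00995), a call lost without D/KO day 0 replicate 1 or 3 or D/KO day 0 plus VC replicate 3 (adjusted p from 0.0501 to 0.0653) and in a fit of only the libraries compared (0.101). No WT time comparison was called, and the day 4 difference between the cell types in VC was called without D/KO day 0 plus VC replicate 2 (0.41, adjusted p = 0.0458). At day 0 D/KO exceeded WT (0.44 ± 0.11, adjusted p = 0.00115). The ratio of Macroh2a1 to Macroh2a2 in TPM went from 0.821 (0.749 to 0.893) to 3.52 (2.93 to 4.04) in D/KO and from 0.759 (0.751 to 0.767) to 2.32 (2.11 to 2.42) in WT cells in VC. Without VC it went from 1.66 (1.24 to 2.11) at day 0 to 2.71 (2.53 to 3.00) at day 4 in D/KO cells. In WT cells without VC it went from 0.779 (0.673 to 0.976) to 1.35 (1.26 to 1.41).

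Of the pair of H3.3 genes, H3f3a rose in D/KO cells without VC, and H3f3b fell in WT cells by day 4 and in both cell types at day 2 in VC. H3f3a was at 174, 242 and 261 CPM in D/KO cells at day 0, 343, 329.6 and 289.7 CPM at day 2 and 422, 469 and 313 CPM at day 4. Both later groups lay above day 0 without overlap (0.51 ± 0.14, adjusted p = 0.00682 and 0.83 ± 0.14, adjusted p = 1.33e-05). Replicate 1 at day 0 was the lowest, and without it the day 2 call was lost (adjusted p = 0.0879). WT cells ranged from 199 to 309 CPM with no call, and the day 4 change differed between the cell types by 0.87 ± 0.20, adjusted p = 0.00241. In VC no H3f3a comparison over time was called against day 0 in VC by edgeR with all libraries and the standard filter. D/KO day 4 in VC was called higher with no filter on low counts (0.31, adjusted p = 0.0297), without D/KO day 0 plus VC replicate 2 (0.40, adjusted p = 0.0363) and without D/KO day 4 plus VC replicate 1 (0.44, adjusted p = 0.0178). The day 4 difference between the cell types in VC was called with no filter on low counts (0.49, adjusted p = 0.021), in a fit of only the libraries compared (0.48, adjusted p = 0.0441), without D/KO day 0 plus VC replicate 2 (0.58, adjusted p = 0.038) and without D/KO day 4 plus VC replicate 1 (0.61, adjusted p = 0.0242). Against day 0 without VC it was higher in D/KO cells at day 2 (0.41, adjusted p = 0.0181) and day 4 (0.58, adjusted p = 0.00099), and that day 4 difference was called (0.61, adjusted p = 0.0273). Near copies of H3f3a lie in 21 other genes, with counts that came to 1.31% of its own.

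H3f3b in WT cells went from 341, 346 and 349 CPM at day 0 to 231, 243 and 234 CPM at day 4. The day 4 libraries were all lower (-0.55 ± 0.12, adjusted p = 0.000627). In VC it was lower in WT cells at day 2 (-0.37 ± 0.12, adjusted p = 0.0182) and day 4 (-0.38 ± 0.12, adjusted p = 0.00857) and in D/KO cells at day 2 (-0.46 ± 0.12, adjusted p = 0.0015). These 3 calls were lost, in that order, without WT day 0 plus VC replicate 1 or WT day 2 plus VC replicate 3 (adjusted p = 0.196 and 0.19) and in a fit of only the libraries compared (0.0504), without WT day 0 plus VC replicate 1 or WT day 4 plus VC replicate 1 (adjusted p = 0.117 and 0.0983), and against day 0 without VC (adjusted p = 0.105). The ratio of H3f3a to H3f3b in TPM went from 0.677 (0.478 to 0.791) to 1.35 (0.956 to 1.59) in D/KO cells and from 0.602 (0.580 to 0.630) to 0.855 (0.805 to 0.888) in WT cells by day 4 without VC. In D/KO cells without VC H3f3b was at 309, 259.6 and 291 CPM at day 0 and 225, 234 and 241 CPM at day 2, with no overlap. This change was not called (-0.29 ± 0.12, adjusted p = 0.0636), but was called lower in DESeq2 (-0.32, adjusted p = 0.0317), with median-of-ratios size factors (-0.32, adjusted p = 0.0407), in a fit of only the libraries compared (-0.29, adjusted p = 0.0398) and without D/KO day 0 replicate 2 (-0.36, adjusted p = 0.0428). VC alone in D/KO cells was called without D/KO day 0 plus VC replicate 2 (0.34, adjusted p = 0.0421), and D/KO against WT at day 0 in a fit of only the libraries compared (-0.28, adjusted p = 0.0306) and without D/KO day 0 replicate 1 (-0.33, adjusted p = 0.048). For H3f3b the day 4 difference between the cell types in VC was not called (0.21 ± 0.17, adjusted p = 0.378), but was against day 0 without VC (0.55, adjusted p = 0.0155). Of 7 genes that place H3.3, 1 was called in D/KO cells at day 4 without VC, the HIRA complex gene Cabin1 at -0.28 (37.0% of all genes called). In WT cells 2 rose at day 4, Ubn1 by 0.43 and Ubn2 by 0.58, which encode subunits of the HIRA complex (24.5%). At day 4 in VC WT cells had Atrx at 1.08, Ubn2 at 0.80 and Daxx at -0.44 (44.7%), so the partners ATRX and DAXX were called in opposite directions.

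Cenpa, the least abundant of the 10, had the widest range. At day 0 the D/KO libraries held 6.64, 5.39 and 8.54 CPM and the WT libraries 2.37, 2.63 and 3.32 CPM, with no overlap (1.30 ± 0.21, adjusted p = 4.83e-06). VC alone brought WT cells to 7.58, 8.66 and 10.3 CPM, all above WT day 0 (1.67 ± 0.21, adjusted p = 7.91e-08), and gave 0.45 ± 0.19, adjusted p = 0.0865 in D/KO cells, called without D/KO day 0 replicate 3 (0.64, adjusted p = 0.0292). In VC, D/KO cells reached 16.4, 20.4 and 18.4 CPM at day 4, above all D/KO day 0 VC libraries (0.97 ± 0.19, adjusted p = 3.46e-05). WT cells in VC held 4.17, 4.23 and 3.04 CPM at day 2 and 4.53, 5.10 and 5.64 CPM at day 4. Both WT groups lay below their day 0 VC libraries (-1.21 ± 0.20, adjusted p = 1.38e-05 and -0.79 ± 0.20, adjusted p = 0.00123).

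The Cenpa change in D/KO exceeded that in WT by 1.44 ± 0.28, adjusted p = 0.000321 at day 2 and 1.77 ± 0.27, adjusted p = 4.94e-06 at day 4 in VC. The D/KO day 4 call was kept against day 0 without VC. Against that baseline D/KO day 2 in VC was called as well (0.68, adjusted p = 0.00361), the WT changes had the opposite sign, at 0.46 (adjusted p = 0.0986) at day 2 and 0.87 (adjusted p = 0.00115) at day 4, and the differences between D/KO and WT were not called (adjusted p = 0.654 and 0.179). Without VC, Cenpa was at 11.6, 7.77 and 13.2 CPM in D/KO cells at day 2, with 1 library inside the day 0 range (0.66 ± 0.19, adjusted p = 0.0081), and at 1.33, 1.96 and 2.10 CPM in WT cells at day 4, below day 0 (-0.63 ± 0.23, adjusted p = 0.0454). The first of these calls was lost without D/KO day 0 replicate 2 or D/KO day 2 replicate 3 (adjusted p = 0.0739 and 0.084), and the second without WT day 0 replicate 2 or 3 or WT day 4 replicate 1 or 2 (adjusted p from 0.0663 to 0.236), with median-of-ratios size factors (0.0504), with no filter on low counts (0.0913) and in a fit of only the libraries compared (0.0844).

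Of 7 genes that place CENP-A, 5 rose and 0 fell in D/KO cells at day 4 in VC (median 0.86; 54.1% of all genes called), among them Oip5, which is needed to load CENP-A, at 1.93, and the mitotic kinase gene Plk1 at 1.33. In WT cells in VC 2 fell at day 2 (27.5% of all genes called), Plk1 at -1.48 and Hjurp, the CENP-A chaperone, at -0.43. The difference of change was called higher in D/KO for 4 of the 7 at day 4 in VC (29.4%). Of 10 general histone chaperones, 8 rose at day 2 (47.4% of all genes called) and 8 at day 4 (54.1%) in D/KO cells in VC, with none lower, including Nap1l1 at 0.85, Rbbp7 at 0.64 and Ssrp1 at 0.59 at day 4. WT cells at day 4 in VC had 3 higher and 3 lower (44.7%), and the difference was called higher in D/KO for 8 of the 10 (29.4%).

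The linker histone genes behaved unlike each other. H1f0 in D/KO cells was at 108, 121 and 105 CPM at day 0, 191, 176 and 134 CPM with VC alone and 143, 155 and 147 CPM at day 4. Both of these groups lay above day 0 (0.58 ± 0.10, adjusted p = 4.41e-05 for VC alone and 0.41 ± 0.10, adjusted p = 0.00171 for day 4). VC alone also gave a higher value in WT cells (0.29 ± 0.10, adjusted p = 0.0312), lost without WT day 0 replicate 1 or 3 or WT day 0 plus VC replicate 1 or 3 (adjusted p from 0.0582 to 0.22) and with no filter on low counts (0.08). At day 0 D/KO was below WT (-0.26 ± 0.10, adjusted p = 0.0414), lost without D/KO day 0 replicate 1 or 3 or WT day 0 replicate 2 or 3 (adjusted p from 0.103 to 0.153) and with no filter on low counts (0.1). No time comparison of H1f0 in VC was called against day 0 in VC by edgeR with all libraries and the standard filter. D/KO day 2 in VC was called lower without D/KO day 0 plus VC replicate 3 (-0.31, adjusted p = 0.0135), its difference from WT without D/KO day 0 plus VC replicate 3 (-0.46, adjusted p = 0.0215), and WT day 4 in VC higher with at least 10 counts required in every library (0.24, adjusted p = 0.0466) and without WT day 0 plus VC replicate 1 (0.32, adjusted p = 0.0233). Against day 0 without VC it was higher in D/KO cells at day 2 (0.41, adjusted p = 0.00154, the opposite sign) and day 4 (0.61, adjusted p = 6.36e-06) and in WT cells at day 2 (0.44, adjusted p = 0.000906) and day 4 (0.52, adjusted p = 0.00011). The 5 genes most like H1f0 over the 12 group means were 2810029C07Rik (r = 0.933), Skic2 (0.913), Aox1 (0.908), Il16 (0.906) and Btg2 (0.905).

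For H1f2 none of the 23 edgeR tests over both tables gave a call with all libraries and the standard filter (1 had an unadjusted p under 0.05 and DESeq2 called 0), and the gene carries the stem-loop shown above, as H2ax does. Its reprogramming libraries ran from 148 to 327 CPM, with large spreads within groups, such as 198, 178 and 327 CPM in D/KO cells at day 0 in VC. For D/KO at day 4 in VC the interval was -0.65 to 0.16, and the gene was called there without D/KO day 4 plus VC replicate 3 (-0.55, adjusted p = 0.0228). It was also called for the difference at day 2 in VC with no filter on low counts (-0.52, adjusted p = 0.0243) and for A83-01 against DMH-1 in a fit of only the libraries compared (-0.37, adjusted p = 0.0127). Of the replication-dependent H1 genes H1f1, H1f3, H1f4 and H1f5, 3 passed the filter, and at day 4 in VC 2 rose in WT cells, H1f3 by 1.59 and H1f4 by 1.43 (44.7% of all genes called). In D/KO cells at that point 1 of 27 tested replication-dependent core histone genes rose and 3 fell (54.1% of all genes called). For the replication-dependent genes too, transcripts that ended at the stem-loop were not measured. The other variants H2aj and H1f10 both fell in WT cells at day 4 in VC (44.7%).

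VC without doxycycline changed 5 of the 10 genes in D/KO cells (2 higher and 3 lower, where 26.2% of all genes were called) and 5 in WT cells (4 higher and 1 lower, background 29.4%). At day 0 4 were higher and 2 lower in D/KO than in WT cells (43.2%). The change over time differed between D/KO and WT for 0 of the 10 at day 2 (6.54%; 2 at an unadjusted p under 0.05 and 0 called in DESeq2) and for 2 at day 4, H2az2 and H3f3a (14.3%). In VC it differed for 4 at day 2, with H2ax, H2az1 and Cenpa higher and H2az2 lower in D/KO (13.9%), and for 3 at day 4, H2ax, H2az1 and Cenpa (29.4%). The H2az1 and H2az2 differences at day 2 in VC were 0.67 ± 0.20, adjusted p = 0.0191 and -0.90 ± 0.27, adjusted p = 0.0201. The first was lost without D/KO day 0 plus VC replicate 3, D/KO day 2 plus VC replicate 2, WT day 0 plus VC replicate 1 or WT day 2 plus VC replicate 2 or 3 (adjusted p from 0.0508 to 0.0639) and against day 0 without VC (0.722), and the second without D/KO day 2 plus VC replicate 3, WT day 0 plus VC replicate 2 or WT day 2 plus VC replicate 1 (adjusted p from 0.0659 to 0.0762). The H2az2 difference at day 4 (0.78 ± 0.26, adjusted p = 0.0373) was lost without D/KO day 0 replicate 2 or 3, D/KO day 4 replicate 2, WT day 0 replicate 1 or 2 or WT day 4 replicate 1 or 3 (adjusted p from 0.0583 to 0.173). The H2az1 difference at day 4 without VC, 0.56 ± 0.20, adjusted p = 0.0539, was called in DESeq2 (0.55, adjusted p = 0.0447), with no filter on low counts (0.57, adjusted p = 0.0226), with at least 10 counts required in every library (0.57, adjusted p = 0.0444), without D/KO day 0 replicate 3 (0.69, adjusted p = 0.0207) and without D/KO day 4 replicate 3 (0.73, adjusted p = 0.00604).

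H2az1, Cenpa and, less closely, H2ax varied with a list of 15 proliferation genes across the 12 group means. The summed CPM of the list was 249 to 293 in D/KO and 126 to 144 in WT libraries at day 0, and 832 to 939 in D/KO and 233 to 264 in WT libraries at day 4 in VC. At day 0 in VC it was 241 to 277 in D/KO and 262 to 300 in WT libraries. Against day 0 in VC, 15 of the 15 rose in D/KO cells at day 4 in VC (median 1.41; 54.1% of all genes called), while in WT cells 10 fell (median -0.93; 44.7%). The WT sums at day 4 in VC overlapped those at day 0 in VC and lay above those at day 0 without VC. VC alone raised 14 in WT cells (29.4%) and 2 in D/KO cells (26.2%). Over the 12 group means, which share lines and media, Pearson's r with the mean of the list was 0.986 for Cenpa, 0.963 for H2az1 and 0.818 for H2ax. It was 0.662 for Macroh2a1, 0.595 for H3f3a, 0.096 for H1f0, -0.037 for H3f3b, -0.179 for H1f2, -0.444 for H2az2 and -0.451 for Macroh2a2. H2ax did not follow the list over time in every arm. By day 4 without VC the sum was 329 to 439.5 CPM in D/KO and 129 to 149 CPM in WT libraries, while H2ax fell in both. In D/KO cells in VC the list rose and H2ax was not called against day 0 in VC. In WT cells in VC H2ax and most of the list were lower at day 4 against that baseline. The keratinocyte markers, 5 genes, also summed to 367 to 501 CPM in D/KO and 10.9 to 12.5 CPM in WT libraries at day 4 in VC, with Krt15 at 0 in both groups. The part of proliferation or of other cell types in the H2ax, H2az1 and Cenpa differences was not tested.

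**Figure D4:**
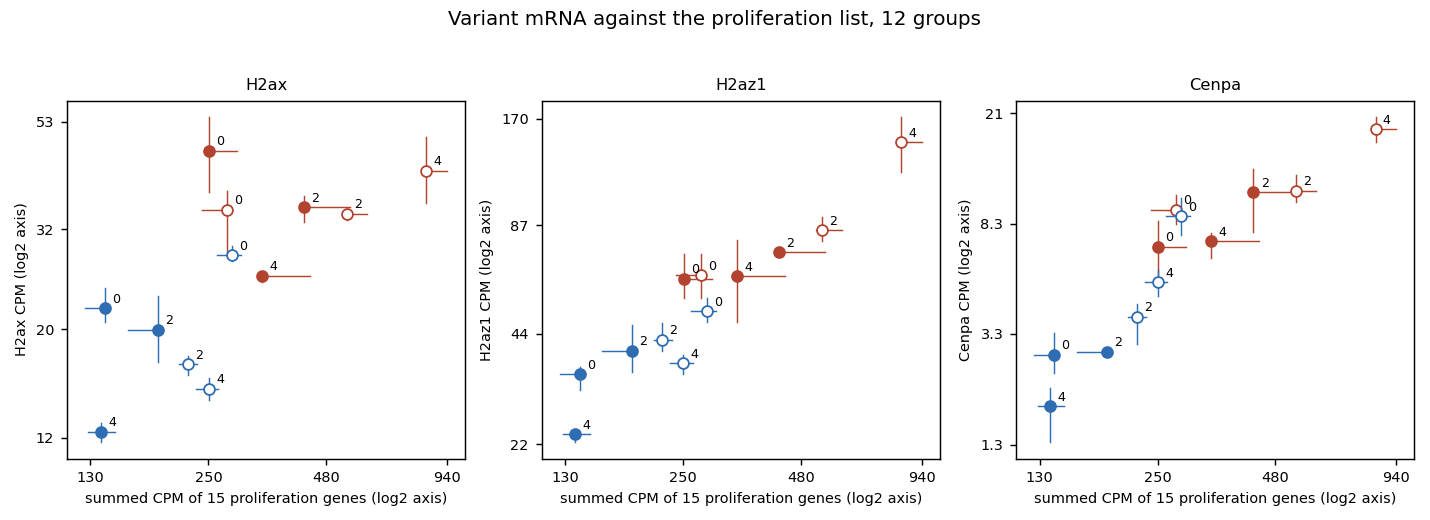
Mean CPM of H2ax, H2az1 and Cenpa against the median summed CPM of 15 proliferation genes in the 12 reprogramming groups, both on log2 axes; lines span the 3 libraries, numbers give the day, red is D/KO, blue is WT and open points are VC. H2az1 and Cenpa lie along a diagonal, and H2ax is more scattered. Pearson's r over group means (0.963 for H2az1, 0.986 for Cenpa and 0.818 for H2ax) was taken between log2 CPM and the mean log2 CPM of the list, not from the plotted sums.

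In the inhibitor table the compounds were compared with untreated D/KO cells. Repsox raised 2 and lowered 0 (25.2% of all genes called), Vactosertib changed 0 (22.1%; 3 at an unadjusted p under 0.05 and 1 in DESeq2), A83-01 raised 1 and lowered 2 (32.6%) and DMH-1 changed 0 (9.75%; 1 unadjusted and 0 in DESeq2). The 4 comparisons share the D/KO control libraries. H2ax was at 36.3, 30.3 and 33.9 CPM in D/KO control and 22.8, 19.3 and 24.9 CPM with A83-01. Every A83-01 library was below every control (-0.59 ± 0.16, adjusted p = 0.011), a call lost without D/KO A83-01 replicate 2 (adjusted p = 0.0585). With Repsox, Vactosertib and DMH-1 H2ax was not called, with intervals of -0.53 to 0.17, -0.64 to 0.06 and -0.51 to 0.18 on the log2 scale. With Vactosertib Cenpa was called lower in DESeq2 (-0.58, adjusted p = 0.0405) and in a fit of only the libraries compared (-0.59, adjusted p = 0.0195), H2az2 higher with no filter on low counts (0.64, adjusted p = 0.0361) and in a fit of only the libraries compared (0.63, adjusted p = 0.00645) and H3f3a higher in a fit of only the libraries compared (0.37, adjusted p = 0.0256).

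Cenpa went from 6.26, 5.17 and 6.43 CPM in D/KO control to 3.46, 3.32 and 2.77 CPM with A83-01, with no overlap (-0.90 ± 0.22, adjusted p = 0.00383). H2az2 was higher with A83-01, at 40.9, 37.8 and 44.1 CPM against 26.7, 22.1 and 22.5 CPM (0.78 ± 0.27, adjusted p = 0.033), and the groups did not overlap. With A83-01 H2az1 was called lower in a fit of only the libraries compared (-0.50, adjusted p = 0.0014) and H3f3a higher in a fit of only the libraries compared (0.39, adjusted p = 0.0111). The H2az2 call was lost without D/KO control replicate 1, 2 or 3 or D/KO A83-01 replicate 1 or 3 (adjusted p from 0.05 to 0.103) and in a fit of all 24 inhibitor libraries (0.0738). The H2az1 to H2az2 ratio in TPM was 2.16 (2 to 2.28) in D/KO control and 0.886 (0.855 to 0.930) with A83-01. Of the proliferation genes 13 of 15 fell with A83-01 (32.6% of all genes called), and of the CENP-A deposition genes 3 of 7 fell, including Plk1 at -1.99. The endothelial markers summed to 243 to 289.7 CPM in D/KO control and 118 to 159 CPM with A83-01. The fibroblast markers summed to 80420 to 83678 CPM in D/KO control, 47484 to 50345 CPM with A83-01, 44541 to 52302 CPM with Repsox and 53936 to 56693 CPM with Vactosertib. Both lists were lower with A83-01 without overlap. The skeletal muscle markers were also lower (6.65 to 8.12 against 10.3 to 12.5 CPM) and the macrophage markers higher (5.67 to 8.34 against 4.46 to 5.15 CPM), and their part was not tested.

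The Repsox calls depended on 1 library. H2az2 was at 31.9, 64.6 and 28 CPM and H3f3a at 317, 523 and 298 CPM with Repsox, replicate 2 being the highest for both (0.80 ± 0.27, adjusted p = 0.0367 and 0.51 ± 0.18, adjusted p = 0.0462). Without that library neither was called (0.32, adjusted p = 0.27 and 0.20, adjusted p = 0.291), and H2az1 (-0.50, adjusted p = 0.0448), H1f2 (-0.69, adjusted p = 0.00127) and Cenpa (-0.79, adjusted p = 0.00787) were called lower. The H2az2 call was also lost without any of the 3 D/KO control libraries, the H3f3a call without D/KO control replicate 2 or 3, and both in a fit of only the libraries compared and in a fit of all 24 libraries.

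Between compounds at the same dose, 2 pairs were compared. Repsox and Vactosertib at 0.1 µM differed in 0 of the 10 genes, and in 0% of all genes (452 genes had an unadjusted p under 0.05, and DESeq2 called 8). The H2ax interval was -0.23 to 0.46 and the H2az1 interval -0.53 to 0.43, so moderate differences would not have been seen. A83-01 and DMH-1 at 1 µM differed in 0 of the 10 (25.4% of all genes; 2 unadjusted and 0 in DESeq2). The libraries of the compounds did not overlap for 8 of the 10 genes, 4 higher and 4 lower with A83-01. Overlap was not counted over all genes, so this number has no background and says nothing particular about the 10. Among the 4 lower was H2ax (-0.42 ± 0.16, adjusted p = 0.0714, interval -0.77 to -0.07). In a fit of only the libraries compared, 5 were called, H2ax (-0.42, adjusted p = 0.0217), H2az1 (-0.38, adjusted p = 0.0422), Macroh2a1 (-0.27, adjusted p = 0.0453) and H1f2 (-0.37, adjusted p = 0.0127) lower and H2az2 (0.52, adjusted p = 0.00556) higher. The count over all genes in that fit stayed within 1.5-fold of the one behind the 25.4%.

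D/KO control cells had 4 of the 10 genes lower and 0 higher than WT tail tip control cells (40.2%), namely H2az2 (-1.10 ± 0.27, adjusted p = 0.00349), Macroh2a2 (-0.62 ± 0.11, adjusted p = 0.000229), H3f3a (-0.87 ± 0.18, adjusted p = 0.000927) and H1f0 (-0.70 ± 0.09, adjusted p = 4.88e-06). H3f3a was at 521, 407 and 547 CPM in WT control and 305, 252 and 241 CPM in D/KO control, and H1f0 at 183, 191 and 215 CPM and 119, 117 and 123 CPM. For both, all WT libraries were higher. Cenpa was higher in D/KO control without overlap, at 6.26, 5.17 and 6.43 CPM against 4.32, 4.22 and 4.41 CPM, and was not called (0.48 ± 0.21, adjusted p = 0.0862), except in a fit of only the libraries compared (0.47, adjusted p = 0.038). Macroh2a1 was called lower without WT control replicate 2 (-0.35, adjusted p = 0.0426). H2ax was not called (0.12 ± 0.16, adjusted p = 0.597, interval -0.23 to 0.46), with WT libraries of 33.1, 24.2 and 36.2 CPM. Of the replication-dependent core histone genes 12 of 20 tested were higher in D/KO control and 0 lower (median 1.55; 40.2% of all genes called). These counts describe polyadenylated transcripts only, and transcripts of these genes that ended at the stem-loop were not measured. The endothelial markers summed to 243 to 289.7 CPM in D/KO control and 55.4 to 73.6 CPM in WT control libraries. The skeletal muscle markers summed to 10.3 to 12.5 and 2.03 to 3.64 CPM and the keratinocyte markers to 0.173 to 0.702 and 10.7 to 13.3 CPM in the same order. The proliferation genes summed to 217 to 229 and 148 to 163 CPM, and the fibroblast markers to 80420 to 83678 and 86391 to 88691 CPM. The part of these lists was not tested.

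WT skin fibroblasts differed from WT tail tip fibroblasts in 5 of the 10 (3 higher and 2 lower, 34.2% of all genes). Cenpa was at 38.1, 19.2 and 20.4 CPM in skin and 4.32, 4.22 and 4.41 CPM in tail tip libraries, with all skin libraries higher (2.58 ± 0.25, adjusted p = 5.8e-08), beside 15 of 15 proliferation genes. The skeletal muscle markers summed to 47.8 to 74 CPM in skin and 2.03 to 3.64 CPM in tail tip libraries, with Myf5 and Pax7 at 0 in both. The endothelial markers summed to 103 to 178 and 55.4 to 73.6 CPM and the macrophage markers to 11.1 to 13.4 and 3.10 to 4.86 CPM. These 3 lists were higher in skin without overlap, the keratinocyte markers were lower without overlap (1.39 to 1.67 against 10.7 to 13.3 CPM), and their part was not tested. H2ax (0.77 ± 0.19, adjusted p = 0.00289) and H2az1 (0.80 ± 0.28, adjusted p = 0.0299) were higher, and Macroh2a2 (-0.53 ± 0.11, adjusted p = 0.00101) and H1f0 (-0.32 ± 0.09, adjusted p = 0.00571) lower. Without skin replicate 1, Cenpa (2.19, adjusted p = 3.73e-08) and H2ax (0.50, adjusted p = 0.0244) were still called, H2az1 was not (0.28, adjusted p = 0.352), and H3f3a was called lower (-0.73, adjusted p = 0.00344). The H2az1 call was also lost without WT control replicate 1 or 2. The H1f0 call was lost with no filter on low counts (-0.33, adjusted p = 0.0693). In a fit of only the 6 libraries compared, Cenpa alone was called.

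**Figure D5:**
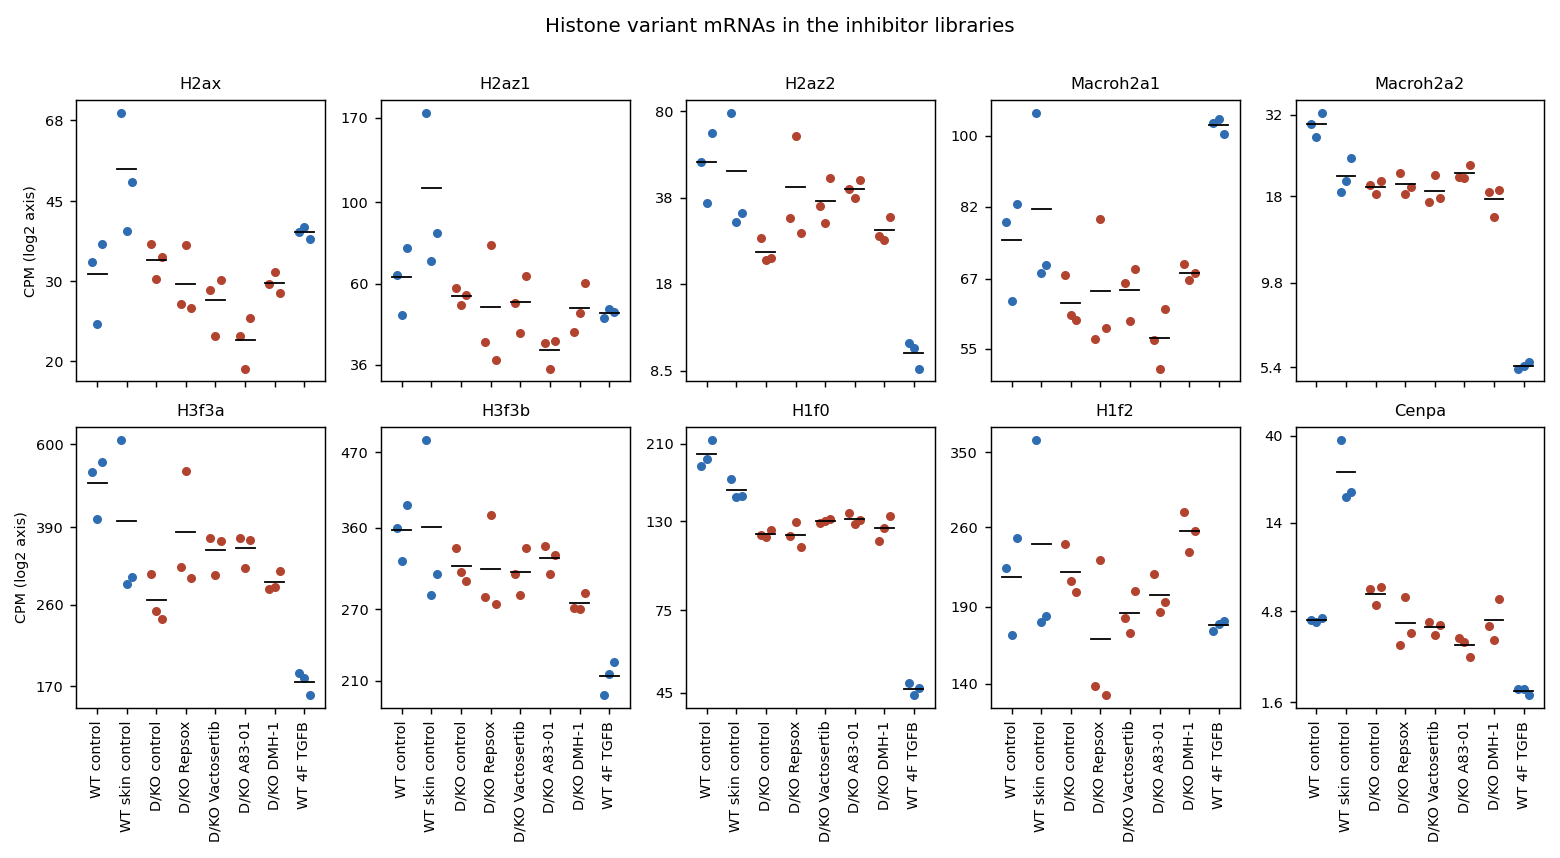
Each panel plots 1 gene in CPM on a log2 axis in the 8 groups of the inhibitor table; points are libraries, bars are group means, red is D/KO and blue is WT. WT skin control replicate 1 and D/KO Repsox replicate 2, the left-hand skin point and the middle Repsox point, are the highest of their group in most panels.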

How the data were processed

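Counts were read from 2 tables deposited by the authors, with whole-number read counts per gene for 36 and 24 libraries. Per the study's methods and the submitters' processing notes, reads were checked with FastQC, trimmed with Trim Galore, aligned to GRCm39 with HISAT2 and counted with featureCounts; versions, strand setting and treatment of multiply mapped reads are not given in the sources used here. The deposited gene lengths, in bases, served only for TPM. Symbols came from GENCODE M39 (56236 of 56980 genes).

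The main test was edgeR 4.0.16 quasi-likelihood (R 4.3.3) on the counts with TMM scaling and filterByExpr (minimum count 10, minimum total 15), two-sided, with Benjamini-Hochberg adjustment over all genes tested. One fit held the 36 reprogramming libraries (15832 genes), another the 18 tail tip inhibitor libraries without WT 4F TGFB (15164 genes), and the last all 24 inhibitor libraries (15652 genes), used for skin against tail tip only. SE is the log2 fold change over the square root of F. Scripts were tested on simulated data. Alternatives were DESeq2 1.42.0, other size factors, no filter, at least 10 counts in every library, fits of only the libraries compared, another baseline, all 24 inhibitor libraries and leaving out each library.

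Genes named were the 10 variants, Ercc1, up to 3 genes with the smallest adjusted p per list and comparison, the 5 genes most like H2ax and H1f0, and list markers; Tmcc1, Aifm2, Gm55497 and Pou5f1 were added after their values were seen. The variants and gene lists were chosen with earlier results of these data known.

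Common biological coefficients of variation were 0.132, 0.168 and 0.195 in these fits. No 2 libraries of a group agreed within counting noise. All per-sample columns mapped to a library.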

Additional observations from a re-analysis of the deposited data

Results flagged for a closer look

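For H3f3a, H2az2, H2ax, H2az1 and Cenpa the change over time differed between D/KO and WT cells by a test of the difference itself. Values are the D/KO minus WT difference in log2 fold change with its adjusted p (edgeR). At day 4 without VC H3f3a differed by 0.87 ± 0.20, adjusted p = 0.00241 and H2az2 by 0.78 ± 0.26, adjusted p = 0.0373. At day 2 in VC H2ax differed by 0.72 ± 0.18, adjusted p = 0.0054, H2az1 by 0.67 ± 0.20, adjusted p = 0.0191, H2az2 by -0.90 ± 0.27, adjusted p = 0.0201 and Cenpa by 1.44 ± 0.28, adjusted p = 0.000321. At day 4 in VC H2ax differed by 1.17 ± 0.18, adjusted p = 5.16e-06, H2az1 by 1.68 ± 0.20, adjusted p = 4.76e-08 and Cenpa by 1.77 ± 0.27, adjusted p = 4.94e-06. The cell types differ in age, sex and reporter line as well as in Ercc1, and these cannot be told apart. Of these 9 results, those for H2ax and Cenpa in VC and for H2az1 at day 2 were not called against day 0 without VC, as given in the report.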

How the results depend on the processing

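Of the 73 calls on the 10 genes over 23 comparisons, 34 held under all alternatives, 47 whichever library was left out and 44 under all settings that kept every library. Of 1280 log2 fold changes under those settings 1208 kept their call or lack of one, 36 gained a call, 31 lost one and 5 changed sign with a call on at least 1 side, and of 1620 with 1 library left out 1511 kept their call or lack of one, 23 gained and 86 lost a call. Sign changes of values not called in either fit were not counted. The 5 sign changes came with day 0 without VC as the baseline of a VC comparison: H1f0 at 0.41 (adjusted p = 0.00154) in D/KO at day 2, Cenpa at 0.46 and 0.87 in WT at days 2 and 4, H2az1 at 0.10 in WT at day 4, and H2ax at -0.044 for the D/KO minus WT difference at day 2. That baseline also left 1 of 10 genes with a called difference at day 2 in VC.

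Fitting only the libraries compared gave 2 calls among the 10 for VC alone in D/KO, 0 for Repsox, 3 for Vactosertib, 5 for A83-01, 5 for A83-01 against DMH-1 and 1 for skin. For Vactosertib, A83-01 and A83-01 against DMH-1 the count over all genes stayed within 1.5-fold of the main test (22.1%, 32.6% and 25.4% called). For VC alone in D/KO, Repsox and skin it moved further, as given below. With no filter the count was 0 for WT day 2, 3 for VC alone in WT and 1 for Vactosertib, DESeq2 gave 1 for Vactosertib, and all 24 inhibitor libraries gave 0 for Repsox. Leaving out 1 library gave 1 to 4 calls for D/KO day 2, 0 to 1 for WT day 2, 3 to 6 and 2 to 4 for VC alone in D/KO and WT, 1 to 3 for the difference at day 4, 3 to 5 for the difference at day 4 in VC and 0 to 3 for Repsox. The causes were not tested.

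Over all genes, fits of only the libraries compared called 6400 instead of 3880 at WT day 4, 2523 instead of 4142 for VC alone in D/KO, 2256 instead of 3819 for Repsox and 2591 instead of 5348 for skin. WT day 2 called 1068 to 1110 genes without WT day 0 replicate 1 or WT day 2 replicate 2, against 1672 with all, and DMH-1 called 847 to 972 without any of the D/KO control libraries or DMH-1 replicate 2, against 1479. No paired analysis was possible because the labels number libraries serially over each table, so that groups share no replicate numbers. The 3 libraries of each group limit the precision of every value.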

Other observations

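The WT 4F TGFB group, whose treatment label is not explained in the sources used here, entered no comparison. Its libraries had little spread and the lowest levels of the inhibitor table for several variants. H1f0 was at 47.8, 44.3 and 46.4 CPM, Macroh2a2 at 5.35, 5.44 and 5.59 CPM, H2az2 at 10.8, 10.4 and 8.66 CPM and Cenpa at 1.89, 1.89 and 1.74 CPM, each below every other library of the table. H3f3a, at 182, 177 and 162 CPM, and H3f3b, at 199, 215 and 225 CPM, were likewise below all others. H2ax was at 38.6, 39.6 and 37.2 CPM and H2az1 at 48.3, 51.3 and 50.3 CPM, inside the range of the other groups. Macroh2a1 was at 104, 105 and 101 CPM, above all other libraries except WT skin control replicate 1. The ratio of Macroh2a1 to Macroh2a2 in TPM was 6.03 (5.75 to 6.18), and that of H2az1 to H2az2 was 4.67 (4.12 to 5.34), higher than in any other group of this table. The proliferation genes summed to 95.6 to 102 CPM.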
